A study of Mus musculus with 12 samples.

Results

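The genes described here are 37 mouse genes of the unfolded protein response, the integrated stress response and the heat shock response. They were found by symbol among the 54232 genes counted in each library, with those under 15 counts summed over all libraries to be dropped. None was dropped, and all 37 were tested. The counts came from poly(A) RNA sequencing of 12 dorsal skin wounds of male C57BLKS/J mice with the Lepr (db/db) genotype, which lack a working leptin receptor and become obese and diabetic. Mice were labelled 12.5 weeks old, and each wound was a 6 mm punch collected 10 days after wounding. The TD group (5 libraries) had a Tegaderm film dressing alone. In the Strain group (4 libraries) a patch designed for roughly 30% strain covered the wound. In the No Strain group (3 libraries) the patch imposed none. All 3 groups share the db/db genotype, the strain of mouse, the sex and the day, and no lean mice were analysed here. Whether some wounds shared a mouse is not labelled, so p-values measure the spread between these wounds. Sample titles bear numbers of 1 to 6 in TD and 7 to 15 under the patches. If that numbering followed an order of handling, order and patch cannot be told apart.

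Proteins that enter the endoplasmic reticulum (ER) are folded there by chaperones and joined by disulfide bonds. When unfolded proteins build up, the sensors IRE1, PERK and ATF6 raise chaperone production and slow the making of new protein. PERK shares its step, the phosphorylation of the translation factor eIF2, with kinases that sense amino acid shortage, viral RNA and heme shortage. The shared branch is called the integrated stress response, and its main transcription factor is ATF4. The heat shock response is a separate program in which HSF1 raises the chaperones of the cytosol and nucleus. Wounded skin makes large amounts of collagen and other secreted proteins, all of which fold in the ER.

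Library totals ran from 20354677 to 25059371 counts, and the 37 members took 0.706% to 0.862% of them. Levels are given as CPM, the counts of a gene relative to its library total after scaling by the trimmed mean of M-values. A count of 3 corresponds to at most 0.147 CPM of the unscaled total, and the lowest count of any member in any library was 25 (Chac1). Keratinocyte and fibroblast markers were detected in each library, as were those of the other cell types listed. Marker lists of other cells moved with the patch. All 8 neutrophil markers were called higher in Strain and 6 of them in No Strain than in TD. Yet all 8 were positive in each, with an unadjusted edgeR p under 0.05. Their median log2 fold change was 1.36 in Strain and 2.33 in No Strain. Their summed level was 527 to 1714 CPM in TD, 999 to 8833 CPM in Strain and 2444 to 5364 CPM in No Strain. Of 6 adipocyte markers, 5 were lower in Strain and 6 in No Strain than in TD (summed 987 to 2197 CPM in TD, 698 to 1038 CPM in Strain, 511 to 774 CPM in No Strain). Of 11 skeletal muscle markers tested, 7 were lower in Strain and 3 in No Strain (summed 6491 to 15882 CPM in TD, 2981 to 5743 CPM in Strain, 4329 to 9460 CPM in No Strain). Endothelial markers were higher for 3 of 6 in each patch group, and T cell markers for 3 of 6 in Strain and 2 of 6 in No Strain. Wound-activated keratinocyte markers were positive against TD for 6 of 6 in each patch group, with 1 called higher in each and 3 in both together (summed 2632 to 4053 CPM in TD, 3618 to 11076 CPM in Strain, 3466 to 11397 CPM in No Strain). Basal keratinocyte markers were mixed: 4 of 6 were positive in Strain, where Col17a1 was called lower (DESeq2 also called Krt14 higher), and 3 of 6 in No Strain, where Krt15 and Col17a1 were called lower. Of 6 markers of differentiated epidermis, edgeR called 0 in Strain, with 1 at an unadjusted p under 0.05, and Sbsn lower in No Strain, while DESeq2 called Sbsn lower in both. No fibroblast or macrophage marker passed edgeR's test in either patch group, with 1 of 6 and 1 of 7 at an unadjusted p under 0.05 in Strain and 1 and 3 in No Strain, and DESeq2 likewise called 0 there. Of 8 plasma and B cell markers, edgeR called 0 in Strain, 1 lower in No Strain and 1 lower in both patch groups. Their summed level was 65.7 to 247 CPM in TD, 33.5 to 68.6 CPM in Strain and 40.3 to 162 CPM in No Strain. None of the markers listed was at 0 in every library, and Tnnc2, a troponin of fast muscle, was at 0 in some. In bulk tissue, fewer cells of a type and less RNA per cell cannot be told apart.

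Per base of exon, the members' levels covered a wide range. Averaged over the 12 libraries, the highest were the cytosolic chaperone Hsp90ab1 at 344 CPM per kilobase, the ER lectin chaperone Calr at 312, the constitutive Hsp70 gene Hspa8 at 234, the disulfide isomerase Pdia3 at 213 and the ER Hsp70 gene Hspa5 at 171. Lowest were Chac1 at 1.37 CPM per kilobase, Trib3 at 3.50, Hspa1a at 4.89 and Hsf1 at 5.14. The 5 highest are standing chaperones and isomerases of the ER and cytosol, and the lowest are stress-inducible genes and the factor HSF1. The heat map of members by library places each gene on its own mean.

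**Figure D1:**
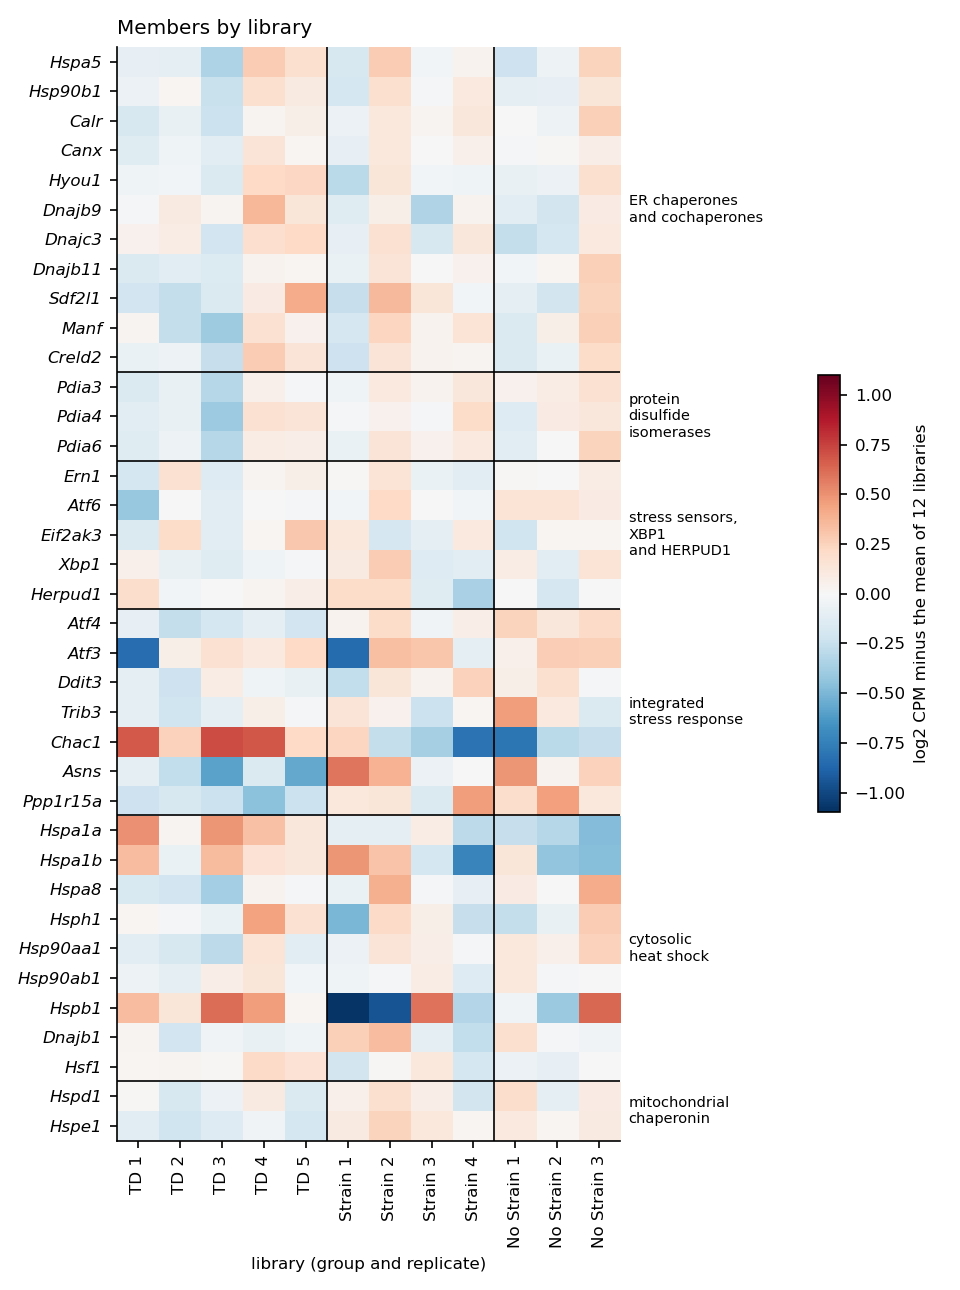
Colour gives log2 CPM minus the gene's mean over the 12 libraries for each of the 37 members (rows, by role) in each library (columns, by group). The ER chaperone and disulfide isomerase rows tend to share their red libraries, TD 4, TD 5, Strain 2 and No Strain 3, across groups, whereas Atf4, Asns, Ppp1r15a and Hspe1 are blue in TD and mostly red under a patch, and Chac1 mostly the reverse.

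Between the patch groups no member passed the test. In Strain against No Strain, 0 of 37 members passed an adjusted p of 0.05 with edgeR's quasi-likelihood fit, as did 0% of all 18618 genes tested. Even at an unadjusted p under 0.05 the count of members was 0, against 5.61% of all genes. DESeq2 also called 0 members, among 33 genes it called in all. The members' log2 fold changes ran from -0.40 for Hspb1 to 0.27 for Hspa1b, with standard errors from 0.0649 to 0.371, and their median was -0.01 beside 0.01 for all genes. No member had libraries that did not overlap between these groups, a state reached by 5.62% of genes.

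Against TD, 6 members changed, and the same 6 were called in each patch group. Atf4, Asns, Ppp1r15a and Hspe1 were higher under a patch, and Chac1 and Hspa1a were lower. The share called, 6 of 37 or 16.2%, compares with 12.6% of all genes in Strain against TD, 17.8% in No Strain against TD and 24.4% where the mean of both patch groups was set against TD. It lay near or below the background in each. By direction, 4 members were higher and 2 lower in each comparison. The background was 6.2% higher and 6.41% lower in Strain, 9.35% higher and 8.4% lower in No Strain, and 12.4% higher and 12.1% lower in both patch groups. The members' median log2 fold change was 0.07, 0.08 and 0.09 in that order, beside 0.02, 0.00 and 0.01 for all genes. These comparisons share the 5 TD libraries, so a TD library that is high or low for a gene moves all of them, and each is given with its own values.

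The count for Strain against TD depended on single libraries. It fell from 6 to 3 without TD 1, to 3 without TD 2, to 1 without TD 3, to 2 without TD 4, to 3 without TD 5, to 3 without Strain 1, to 0 without Strain 2 and to 2 without Strain 4. In No Strain against TD it was 3 without No Strain 1 and 3 without No Strain 3. With both patch groups together it was 6 or 7 whichever library was left out. When the mean level of the skeletal muscle markers entered the fit as a covariate, the members called were 0 in Strain, 1 in No Strain (Atf4) and 0 in both patch groups, while the calls over all genes fell to 1, 928 and 111.

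**Figure D2:**
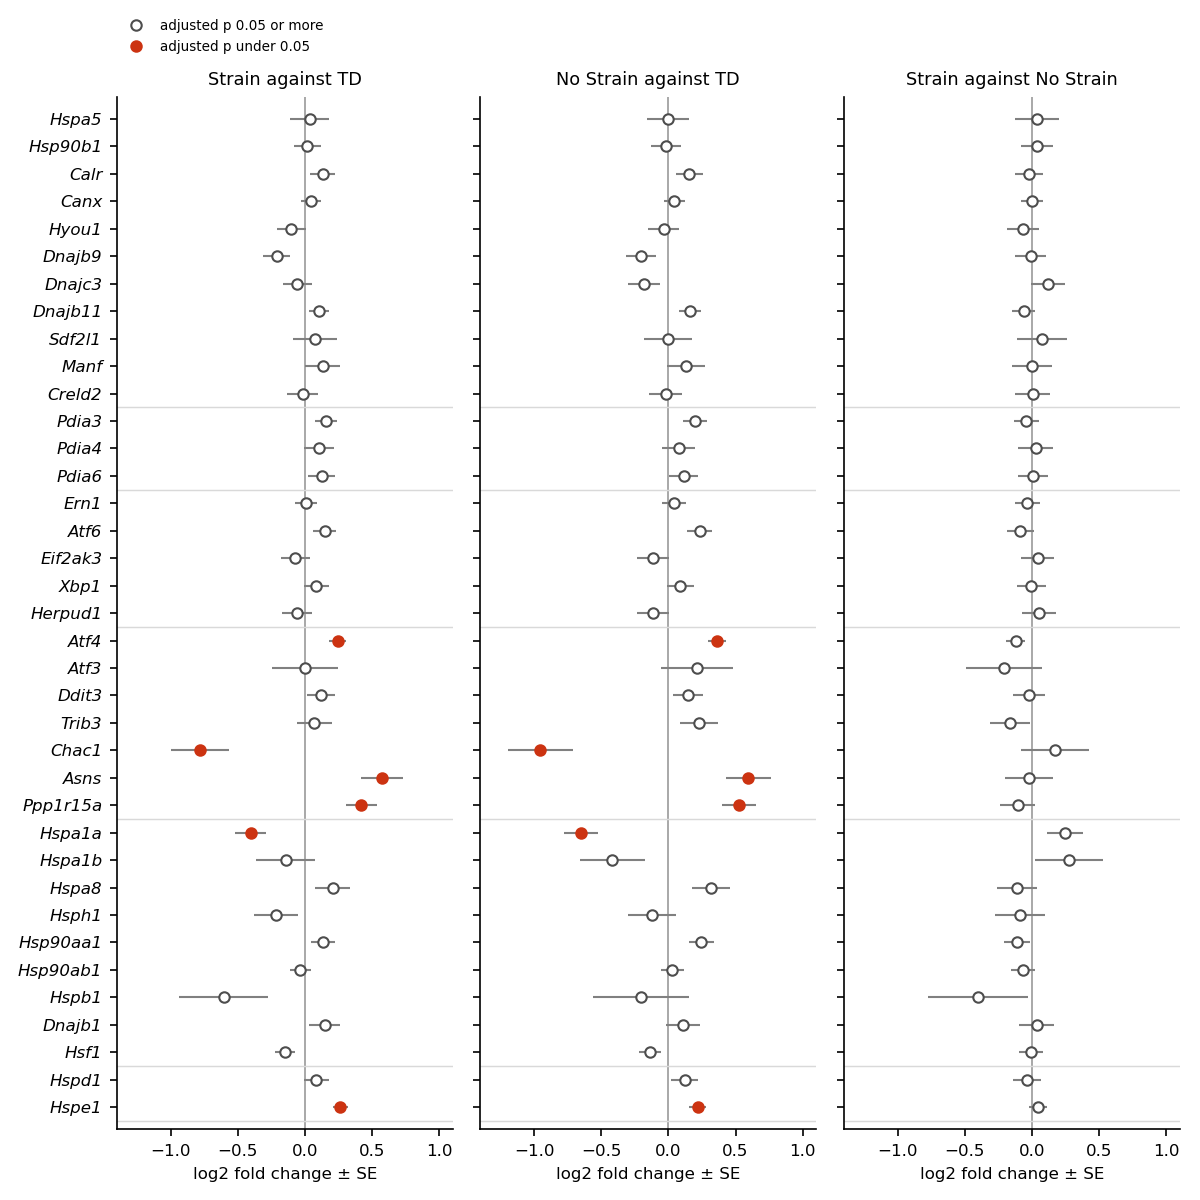
Log2 fold change with its standard error (x axis) for each of the 37 members (y axis, grey lines between role groups) in 3 comparisons, from edgeR, with filled points for adjusted p under 0.05. The same 6 genes are filled in both comparisons with TD, and none is filled in Strain against No Strain. The 14 points of the ER chaperones and disulfide isomerases lie between -0.21 (Dnajb9, Strain against TD) and 0.20 (Pdia3, No Strain against TD). The latter is near the filled Hspe1 at 0.22 in the same panel.

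No ER chaperone or cochaperone passed the test with a patch. The count was 0 of 11 in each comparison by edgeR, DESeq2 and limma-voom, and at an unadjusted p under 0.05 edgeR had 0 in Strain and No Strain against TD and 1, Dnajb9, in both patch groups. Their median log2 fold change was 0.04 in Strain against TD, -0.0023 in No Strain against TD and 0.0034 in Strain against No Strain. Hspa5 encodes BiP, the Hsp70 of the ER lumen that binds unfolded chains and holds the sensors inactive. Its level was 673, 672, 568, 870 and 813 CPM in the 5 TD libraries. In Strain it was 634, 874, 702 and 737 CPM, and in No Strain 612, 691 and 850 CPM. The groups covered the same range, and the log2 fold changes were 0.04 ± 0.144 (SE) in Strain and -0.0023 ± 0.157 in No Strain (edgeR adjusted p = 0.898 and 0.995). Calreticulin (Calr) and calnexin (Canx), which fold glycoproteins, averaged 848 ± 75.8 CPM and 389 ± 30.8 CPM in TD (SD, n = 5), 930 ± 55.2 and 401 ± 24.3 CPM in Strain (SD, n = 4), and 944 ± 114 and 401 ± 12.8 CPM in No Strain (SD, n = 3). Hsp90b1, the ER Hsp90, Hyou1, which exchanges the nucleotide of BiP, and the J-domain cochaperones Dnajb9, Dnajc3 and Dnajb11 had fold changes against TD between -0.21 and 0.16 on the log2 scale. Dnajb9 was the most negative of them, at 44.0 ± 4.71 CPM in TD, 38.0 ± 4.65 in Strain and 38.2 ± 4.11 in No Strain (adjusted p = 0.11 for both patch groups against TD). The small ER proteins Sdf2l1, Manf and Creld2 lay between -0.02 and 0.13.

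The disulfide isomerases, which make and rearrange disulfide bonds, likewise had 0 of 3 members called by edgeR and by limma-voom. DESeq2 called Pdia3 for both patch groups against TD, where edgeR had it at an unadjusted p under 0.05. Pdia3, the partner of calreticulin and calnexin, had 623 ± 60.4 CPM in TD (SD, n = 5), 694 ± 37.1 in Strain (SD, n = 4) and 713 ± 31.7 in No Strain (SD, n = 3), with edgeR adjusted p = 0.236 and 0.15 against TD. Pdia4 and Pdia6 had log2 fold changes of 0.08 to 0.12. All 3 were positive against TD in both patch groups without passing the test.

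These genes varied together from wound to wound over the 12 libraries. No correlation was computed within a single group. The 4 libraries highest in Hspa5 were TD 4, TD 5, Strain 2 and No Strain 3, from all 3 groups. Of the other 13 ER chaperones and isomerases, 12 had at least 3 of these same libraries among their own 4 highest. Across the 12 libraries, the correlation of log2 CPM with Hspa5 was between 0.54 and 0.96 for the other 10 ER chaperones and between 0.68 and 0.89 for the isomerases. Of the 18617 other genes tested, 126 or 0.677% had r above 0.7, and 11 of the 13 were among them. The 2 genes with r above 0.9 were both ER chaperones, Creld2 and Hsp90b1. After each group's mean was removed, 338 genes or 1.82% had r above 0.7, all 13 among them, and 22 had r above 0.9, of which 6 were among the 13. Creld2 came first, with Pearson r = 0.96 (permutation p = 1e-05, the smallest that 100000 resamples can give, adjusted p = 0.00036 over 36 relations) and Spearman rho = 0.94 (permutation p = 3e-05, adjusted p = 0.0009). Hsp90b1 had r = 0.94 (permutation p = 3e-05, adjusted p = 0.00054) and rho = 0.93 (permutation p = 5e-05, adjusted p = 0.0009). Dnajb9 was the weakest, with r = 0.54 (permutation p = 0.0677, adjusted p = 0.152) and rho = 0.51 (permutation p = 0.094, adjusted p = 0.199). With the libraries farthest from the median of Hspa5 left out, Strain 2 and TD 4, r was 0.96 for Creld2, 0.91 for Hsp90b1 and 0.34 for Dnajb9. With group means removed, r ran from 0.73 to 0.97 over the ER chaperones and from 0.82 to 0.95 over the isomerases. Within the 6 libraries whose titles carry the letter L the lowest r over both sets was 0.46 (Pdia4), and within the 6 with the letter R it was 0.55 (Dnajb9).

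By role, r above 0.7 with Hspa5 was found for 9 of 10 ER chaperones, 2 of 3 isomerases and 2 of 9 cytosolic heat shock genes (Hspa8 at 0.72 and Hsph1 at 0.75). The count was 0 of 5 for the sensors with XBP1 and HERPUD1, 0 of 7 for the integrated stress response and 0 of 2 for the mitochondrial chaperonin. With group means removed, the cytosolic genes Hspa8 (0.88), Hsph1 (0.86) and Hsp90aa1 (0.83) were above 0.7. They then stood above the ER members Dnajb9 (0.73), Sdf2l1 (0.79) and Pdia4 (0.82), so the relation was not particular to the ER. Points of such a relation share a library, so differences in cell mixture and in RNA quality enter both axes. Their part in the relation was not tested.

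**Figure D3:**
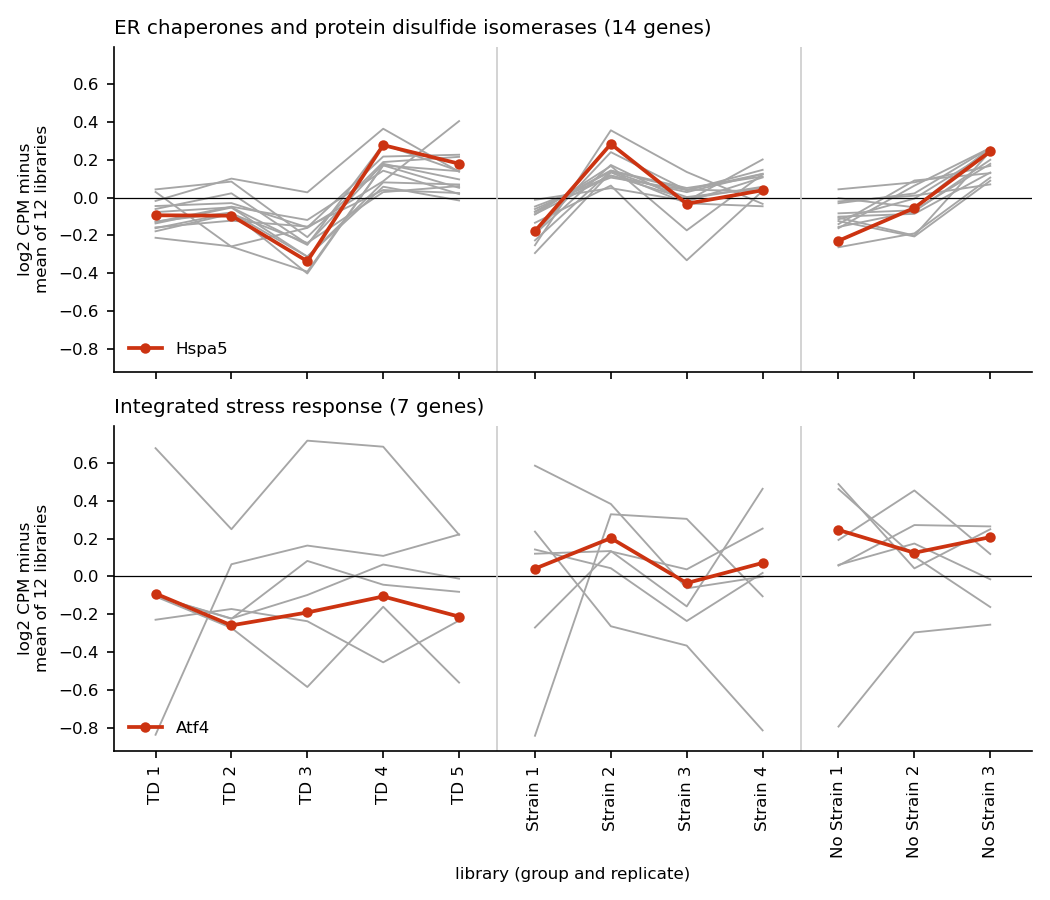
Log2 CPM minus the mean of 12 libraries (y axis) by library (x axis, replicates in no order, lines only join the values of a gene within a group) for the 14 ER chaperones and disulfide isomerases with Hspa5 in red (top) and the 7 integrated stress response genes with Atf4 in red (bottom). Most of the upper genes follow Hspa5 within each group, whereas Atf4 is below 0 in all 5 TD libraries and above 0 in 6 of 7 patch libraries.

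Sequence upstream of some of these genes, not all, holds a known element. The ER stress element is bound by ATF6 together with the factor NF-Y. It was searched as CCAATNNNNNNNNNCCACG, with N any base, on both strands of RefSeq promoter windows (GRCm38.p6) that run from 250 bases before to 50 bases after a gene's start. A window existed for 30 of the 37 members, and not for Hyou1, Manf, Atf6, Hspa8, Hsp90aa1, Hsp90ab1 and Hsf1. The element was found in 7 members, all of them ER chaperones or isomerases, and in 0.137% of 27025 genes with a window. Windows of Dnajb9, Dnajb11, Sdf2l1, Pdia3 and Pdia4, which belong to the same groups, did not hold it. The Hspa5 window is shown because Hspa5 is the reference of the relation above. It lies at chr2:34771840-34772139 on the plus strand, with the element in capitals, and the element begins 65 bases before the start.
Hspa5: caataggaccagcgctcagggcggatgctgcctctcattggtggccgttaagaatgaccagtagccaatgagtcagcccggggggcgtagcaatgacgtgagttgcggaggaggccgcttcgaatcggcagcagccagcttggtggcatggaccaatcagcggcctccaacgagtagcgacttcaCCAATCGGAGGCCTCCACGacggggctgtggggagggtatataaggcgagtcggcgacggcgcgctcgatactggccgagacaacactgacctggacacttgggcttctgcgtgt

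The matches of the other 6 members are set out to show how the spacer varies while the ends are fixed. Each is read on the strand that carries the element, and capitals mark the fixed letters. Those of Calr and Creld2 and the match of Hsp90b1 nearer to its start lie on the strand opposite to the gene.
Hsp90b1, farther match: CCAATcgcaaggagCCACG
Hsp90b1, nearer match: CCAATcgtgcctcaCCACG
Calr: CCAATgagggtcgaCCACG
Canx: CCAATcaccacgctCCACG
Dnajc3: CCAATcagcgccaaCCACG
Creld2: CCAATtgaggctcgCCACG
Pdia6: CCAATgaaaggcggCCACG

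They began between 98 and 212 bases before the start. A related form, ER stress element II, searched as ATTGGNCCACG on both strands, was found in Dnajb11 and Herpud1 and in 0.0444% of genes. In Dnajb11 that match begins after the start. The unfolded protein response element TGACGTGG, bound by XBP1, was found in 0 members and in 0.714% of genes. These are letter matches in a fixed window and say nothing of binding in the wounds.

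None of the sensors or the factors next to them passed the test. Ern1 (IRE1), Eif2ak3 (PERK) and Atf6, with Xbp1, the factor whose RNA is spliced by IRE1, and Herpud1, which helps remove unfolded proteins from the ER, had 0 of 5 called in each comparison by edgeR, DESeq2 and limma-voom, and 0, 1 and 1 at an unadjusted p under 0.05 with edgeR in Strain, No Strain and both against TD. Xbp1 had 240, 220, 211, 224 and 228 CPM in TD, 249, 281, 210 and 213 CPM in Strain, and 245, 214 and 258 CPM in No Strain. Its groups overlapped throughout, with log2 fold changes of 0.08 ± 0.0931 (SE) and 0.09 ± 0.101 against TD (edgeR adjusted p = 0.591 and 0.587). Gene counts do not separate spliced from unspliced Xbp1. Atf6 came nearest to the threshold. It had 59.9, 79.5, 73.8, 79.9 and 78.7 CPM in TD, 78.2, 92.8, 80.2 and 78.2 CPM in Strain, and 88.5, 88.8 and 84.9 CPM in No Strain. The No Strain libraries all lay above TD, but the adjusted p was 0.109. Ern1 and Eif2ak3 averaged 52.6 ± 5.46 and 43.9 ± 6.10 CPM in TD, and each differed from this by at most 0.11 on the log2 scale in either patch group. Herpud1, at 77.2 ± 4.81 CPM in TD, was at 74.0 ± 13.6 in Strain and 71.4 ± 5.32 in No Strain.

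The integrated stress response held 4 of the 6 changed members. They are 57.1% of its 7 genes, a small set, beside 12.6% of all genes called in Strain and 17.8% in No Strain. Atf4, Asns and Ppp1r15a were higher under both patches, and Chac1 was lower, while Ddit3, Atf3 and Trib3 did not pass the test. The median log2 fold change of the 7 was 0.12 in Strain and 0.23 in No Strain. Their summed level was 267 ± 7.75 CPM in TD (SD, n = 5), 313 ± 23.1 in Strain (SD, n = 4) and 340 ± 7.21 in No Strain (SD, n = 3), most of it from Atf4.

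Atf4 encodes the transcription factor of this branch. Its protein is controlled mainly by translation, which RNA counts do not show. Its RNA level was 167, 148, 156, 165 and 153 CPM in TD, 183, 204, 173 and 187 CPM in Strain, and 211, 194 and 205 CPM in No Strain. All 7 patch libraries lay above all 5 TD libraries. The log2 fold change was 0.24 ± 0.0621 (SE) in Strain and 0.36 ± 0.0672 in No Strain (edgeR adjusted p = 0.0287 and 0.00601), and 0.30 ± 0.0549 for both patch groups (adjusted p = 0.00351). In Strain the call was lost without TD 2, TD 3, TD 5, Strain 2 or Strain 4, with adjusted p between 0.0513 and 0.0949.

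Asns encodes asparagine synthetase, an ATF4 target that makes asparagine. Levels in TD were 24.1, 21.5, 17.3, 23.2 and 17.6 CPM. In Strain they were 39.0, 33.8, 24.8 and 25.9 CPM, and in No Strain 36.4, 26.7 and 30.9 CPM. No patch library fell into the TD range, although Strain 3 lay just above it. The log2 fold change was 0.57 ± 0.157 (SE) in Strain, 0.59 ± 0.169 in No Strain and 0.58 ± 0.14 in both (edgeR adjusted p = 0.0356, 0.0332 and 0.0124). Without TD 2, TD 3, TD 4, TD 5, Strain 1 or Strain 2 the call in Strain was lost (adjusted p 0.0558 to 0.107), as it was with limma-voom (0.0532), and without TD 2, TD 3, TD 5, No Strain 1 or No Strain 3 the call in No Strain (0.0532 to 0.129).

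Ppp1r15a encodes GADD34, the phosphatase subunit that reverses eIF2 phosphorylation and lets protein synthesis resume. It had 21.8, 22.6, 21.6, 18.6 and 21.7 CPM in TD, 27.7, 28.0, 22.9 and 35.2 CPM in Strain, and 29.2, 35.0 and 27.7 CPM in No Strain. The patch libraries again all exceeded TD, Strain 3 by the least. Its log2 fold change was 0.42 ± 0.117 (SE) in Strain, 0.53 ± 0.126 in No Strain and 0.47 ± 0.104 in both (edgeR adjusted p = 0.038, 0.0173 and 0.00824). The call in Strain was lost without any of TD 1 to TD 5, Strain 1, Strain 2, Strain 4 or No Strain 1 (adjusted p 0.0512 to 0.0939) and with limma-voom (0.0615), and that in No Strain without No Strain 2 (0.0649). Ppp1r15a is also an early response gene, and all 7 immediate early genes listed had positive fold changes in each patch group. With edgeR 3 (Fos, Junb and Zfp36) were higher in No Strain than in TD and 0 in Strain, where 2 had an unadjusted p under 0.05 and DESeq2 called 1, Junb. Their summed level was 457 to 535 CPM in TD, 472 to 709 CPM in Strain and 662 to 814 CPM in No Strain, and their part in the result was not tested.

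Chac1, which encodes an enzyme that breaks down glutathione and is usually counted among the ATF4 and CHOP targets, went the opposite way. It had 3.37, 2.51, 3.47, 3.39 and 2.46 CPM in TD, 2.48, 1.76, 1.64 and 1.20 CPM in Strain, and 1.22, 1.72 and 1.77 CPM in No Strain. No Strain lay wholly below TD, and Strain overlapped it only through Strain 1. The log2 fold change was -0.78 ± 0.218 (SE) in Strain, -0.96 ± 0.243 in No Strain and -0.87 ± 0.187 in both (edgeR adjusted p = 0.0379, 0.0219 and 0.00768). These levels rest on 25 to 87 counts per library, the fewest of any member. The call in Strain was lost without TD 1, TD 3, TD 4, Strain 2, Strain 3 or Strain 4 (adjusted p 0.0664 to 0.0933) and without a filter on low counts (0.0597), and that in No Strain without No Strain 1 or No Strain 3 (0.0846 and 0.0516).

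Ddit3 encodes CHOP, which acts late in ER stress. It had 14.3, 13.2, 16.3, 14.9 and 14.6 CPM in TD, 12.8, 16.9, 15.8 and 18.4 CPM in Strain, and 16.1, 17.4 and 15.2 CPM in No Strain. The groups overlapped, with log2 fold changes of 0.12 ± 0.104 (SE) and 0.15 ± 0.113 (edgeR adjusted p = 0.467 and 0.397). A further Ddit3 gene model overlaps this one by 105 bases and had 0 counts in all libraries, so reads in the shared stretch may have been left uncounted. Atf3, a stress-induced repressor, was at 23.7 CPM in TD 1 and 23.7 CPM in Strain 1 and between 39.4 and 53.3 CPM in the other 10 libraries. Trib3, a pseudokinase that restrains ATF4, ran from 6.27 to 10.2 CPM with no difference past the test.

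**Figure D4:**
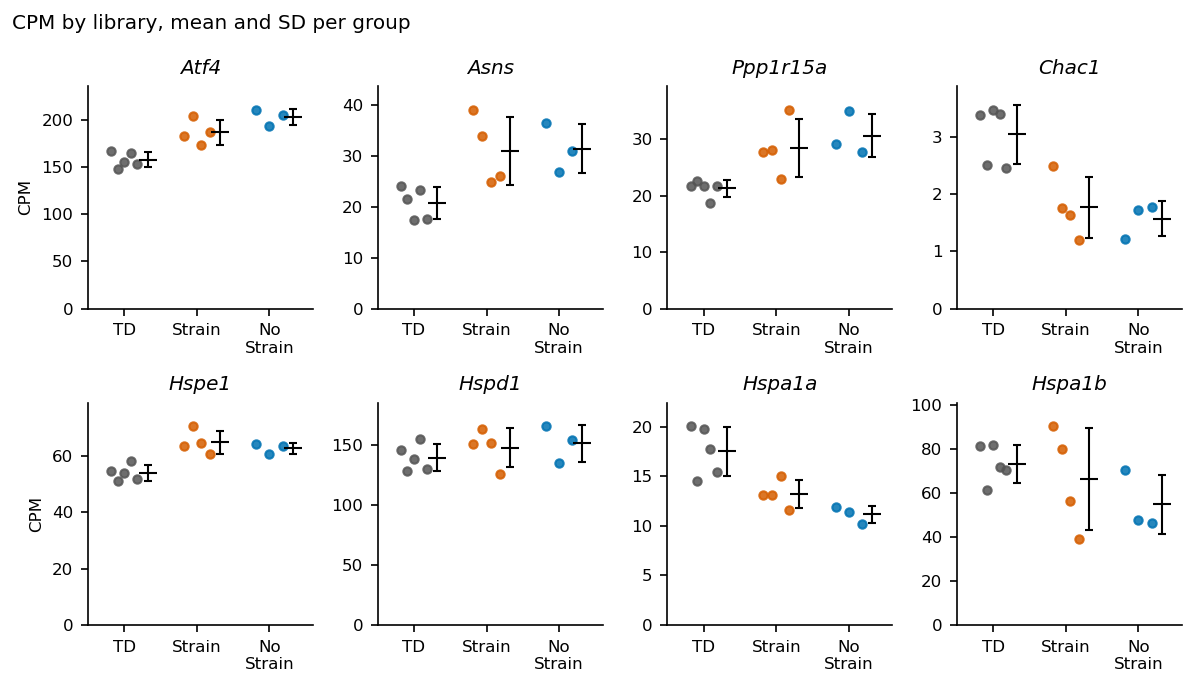
CPM (y axes, from 0) in each library (points, by group) with the group mean and SD (black) for the 6 changed members and 2 partners, Hspd1 and Hspa1b. Atf4, Asns, Ppp1r15a and Hspe1 lie higher in every patch library than in any TD library, Chac1 and Hspa1a lie lower under a patch with overlap of Strain and TD, and Hspd1 and Hspa1b overlap between groups.

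The Asns and Chac1 promoters are shown because these genes share an element and moved in opposite directions. The amino acid response element, part of the site bound by ATF4 with a C/EBP partner, was searched as TGATGNAA on both strands. It was found in 5 members (Asns, Chac1, Atf3, Trib3 and Herpud1) and in 4.51% of all genes with a window. The Asns window lies at chr6:7693160-7693459 on the minus strand and the Chac1 window at chr2:119350992-119351291 on the plus strand. Both are printed 5′ to 3′ on the gene's strand with the match in capitals. In Asns it begins 23 bases before the start, and in Chac1 it lies 193 bases before the start on the opposite strand, so it reads as TTGCATCA.
Asns: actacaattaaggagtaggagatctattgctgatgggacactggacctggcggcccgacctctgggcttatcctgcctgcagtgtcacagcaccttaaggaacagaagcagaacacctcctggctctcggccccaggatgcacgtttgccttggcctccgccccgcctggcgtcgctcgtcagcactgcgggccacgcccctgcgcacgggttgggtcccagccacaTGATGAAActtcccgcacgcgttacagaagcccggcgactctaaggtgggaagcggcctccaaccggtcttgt
Chac1: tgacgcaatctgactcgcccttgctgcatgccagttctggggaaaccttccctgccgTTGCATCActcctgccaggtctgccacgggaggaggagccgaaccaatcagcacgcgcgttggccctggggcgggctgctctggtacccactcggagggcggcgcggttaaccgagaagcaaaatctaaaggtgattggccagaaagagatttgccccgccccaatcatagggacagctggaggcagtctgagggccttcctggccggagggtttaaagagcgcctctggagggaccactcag

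Of the 5 carriers, Asns rose, Chac1 fell, and Atf3, Trib3 and Herpud1 were not called. A match describes letters only.

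Among the 9 cytosolic heat shock genes, Hspa1a alone was called, and it was lower under the patches. At an unadjusted p under 0.05 edgeR had 1 of 9 in Strain, 3 in No Strain and 3 in both patch groups. Those beside Hspa1a were Hspa8 and Hsp90aa1, both higher. Hspa1a and Hspa1b are neighbouring, stress-inducible Hsp70 genes. Hspa1a had 20.03, 14.5, 19.8, 17.8 and 15.5 CPM in TD, 13.1, 13.1, 15.0 and 11.6 CPM in Strain, and 11.9, 11.4 and 10.2 CPM in No Strain. The No Strain libraries were all below TD, and Strain overlapped TD through Strain 3. The log2 fold change was -0.41 ± 0.116 (SE) in Strain, -0.65 ± 0.129 in No Strain and -0.53 ± 0.101 in both (edgeR adjusted p = 0.0418, 0.00784 and 0.00442). In Strain the call was lost without TD 1, TD 3, TD 4, Strain 1, Strain 2, Strain 4 or No Strain 2 (adjusted p 0.0518 to 0.0983). It was also lost with limma-voom (0.0994), without a filter on low counts (0.0663) and in a fit on only the groups compared (0.0592). Hspa1b had 81.5, 61.2, 81.8, 71.8 and 70.4 CPM in TD, 90.3, 80.1, 56.3 and 39.0 CPM in Strain, and 70.5, 47.8 and 46.5 CPM in No Strain. Its Strain libraries reached both above and below TD, and it was not called (log2 fold change -0.14 ± 0.22 and -0.42 ± 0.243, edgeR adjusted p = 0.708 and 0.257).

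The Hspa1a call is uncertain, because the coding sequences of this pair are 99.4% identical (1915 of 1926 aligned bases) and the rule for reads that match both is not given in the sources used here. Hspa1a took 12.7% to 22.9% of the pair's counts, and both extremes were Strain libraries. When the pair was summed into 1 gene, the log2 fold change was -0.19 in Strain, -0.46 in No Strain and -0.33 in both, and none passed the test (edgeR adjusted p = 0.548, 0.156 and 0.18). The exons of Hspa1a also overlap the gene Gm20481 by 564 bases on the opposite strand. Summing the pair does not address that overlap, and the strand setting of the counting is not given in the sources used here.

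The standing chaperones of the cytosol were not called. Hspa8 had 905 ± 101 CPM in TD (SD, n = 5), 1044 ± 177 in Strain (SD, n = 4) and 1125 ± 174 in No Strain (SD, n = 3), with edgeR adjusted p = 0.324 and 0.146. Hsp90ab1 was among the steadiest members, between 938 and 1134 CPM over all libraries, and the inducible Hsp90aa1 lay between 165 and 240 CPM. The log2 fold change of Hsp90aa1 was 0.13 in Strain and 0.24 in No Strain (edgeR adjusted p = 0.338 and 0.0945). The small heat shock protein gene Hspb1, which is also strongly expressed in keratinocytes and muscle, varied most. It ran from 154 to 232 CPM in TD, from 72.04 to 230 CPM in Strain and from 114 to 235 CPM in No Strain, a 3.27-fold range over all libraries. Its log2 fold change in Strain, -0.60 ± 0.331 (SE), did not pass (edgeR adjusted p = 0.249). The cochaperones Hsph1 and Dnajb1 had log2 fold changes against TD between -0.21 and 0.15.

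Hsf1, the transcription factor of the response, is controlled largely at the protein level. It had 36.8, 37.2, 36.6, 42.0 and 40.5 CPM in TD, 31.6, 36.6, 39.4 and 31.8 CPM in Strain, and 34.7, 34.1 and 36.3 CPM in No Strain. The No Strain values were all below TD by a small margin. The log2 fold changes of -0.15 ± 0.0762 (SE) and -0.14 ± 0.0831 did not pass (edgeR adjusted p = 0.223 and 0.267).

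The mitochondrial chaperonin is a folding chamber built from Hsp60 (Hspd1) and its lid Hsp10 (Hspe1), whose genes sit head to head. Hspe1 was higher under both patches. It had 54.9, 51.2, 54.0, 58.2 and 52.0 CPM in TD, 63.8, 70.6, 64.6 and 60.6 CPM in Strain, and 64.2, 60.6 and 63.7 CPM in No Strain. Every patch library exceeded every TD library. The log2 fold change was 0.26 ± 0.0569 (SE) in Strain, 0.22 ± 0.0617 in No Strain and 0.24 ± 0.0502 in both (edgeR adjusted p = 0.0159, 0.0328 and 0.00667). The call in Strain was lost without Strain 2 (0.0531), and the call in No Strain without TD 1, TD 2, TD 3, TD 5 or any No Strain library (0.0502 to 0.107), without a filter on low counts (0.0728) and with library totals alone (0.126). Hspd1 had 146, 128, 138, 155 and 130 CPM in TD, 150, 164, 152 and 126 CPM in Strain, and 166, 135 and 154 CPM in No Strain. Its groups overlapped and it was not called, with log2 fold changes of 0.08 ± 0.0909 (SE) and 0.12 ± 0.0987 (edgeR adjusted p = 0.573 and 0.429). The exons of the pair overlap by 112 bases on opposite strands, and the strand setting of the counting is not given in the sources used here, so reads from that stretch cannot be told apart.

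The shared promoter of this pair is shown because it carries a heat shock element in both orientations while 1 of the pair was called. The element, bound by HSF1, was searched as GAANNTTCNNGAA on both strands. It was found in 3 members (Hspe1, Hspd1 and Hsph1) and in 0.662% of genes with a window. In Hsph1 the match begins after the start. Windows of the heat shock genes Hspa1a, Hspa1b, Dnajb1 and Hspb1 held no match to this strict pattern. The Hspe1 window lies at chr1:55087898-55088197 on the plus strand. Its overlapping matches, in capitals, begin 89 and 84 bases before the start, and the same bases on chromosome 1, from 55088059 to 55088076, are the matches of Hspd1.
Hspe1: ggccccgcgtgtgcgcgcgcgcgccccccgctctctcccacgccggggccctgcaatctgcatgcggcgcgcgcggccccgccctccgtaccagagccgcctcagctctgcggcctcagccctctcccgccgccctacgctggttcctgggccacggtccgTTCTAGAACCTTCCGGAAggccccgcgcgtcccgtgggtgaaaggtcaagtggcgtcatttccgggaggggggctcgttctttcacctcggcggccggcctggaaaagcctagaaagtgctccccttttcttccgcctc

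By non-overlap of libraries, 4 members were higher in Strain than in TD and 0 lower, against 14.6% of all genes in either direction. In No Strain 5 were higher (the same 4 and Atf6) and 3 lower (Chac1, Hspa1a and Hsf1), against 26.7% of genes. For both patch groups it was 4 and 0, against 11% of genes. Over 37 members these counts are near the background shares.

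The muscle markers were entered as a covariate to set the 6 members beside them. Their mean log2 CPM was at most 7.49 in Strain (Strain 3) and at least 7.68 in TD (TD 5). In Strain that fit therefore cannot tell the patch from the markers, and nothing is read from its lost calls. In Strain against TD the log2 fold changes of Atf4 (0.28), Asns (0.54), Chac1 (-0.69) and Hspe1 (0.35) were close to those without the covariate, while Ppp1r15a was at 0.13 and Hspa1a at -0.16. None of the 6 passed in that fit (edgeR adjusted p = 0.508, 0.622, 0.63, 0.409, 0.872 and 0.832 in that order). In No Strain, Ppp1r15a was at 0.37 and Hspa1a at -0.52, nearer to their values without the covariate, and both missed the threshold. Atf4 passed there, at 0.38 (adjusted p = 0.0379). With the letter of the sample title as a covariate, 0 members passed in Strain, 3 in No Strain (Atf4, Chac1 and Hspa1a) and 4 in both (those and Hspe1), with the 6 directions as before.

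A wider list of 115 other genes of the same pathways was tested in the same fit. Of 114 tested, 0 changed in Strain against No Strain, 12 in Strain against TD (7 higher, 5 lower), 15 in No Strain (11 higher, 4 lower) and 29 in both patch groups (21 higher, 8 lower). The shares against TD were 10.5%, 13.2% and 25.4% in that order, beside 12.6%, 17.8% and 24.4% of all genes. The rest of the integrated stress response had 9 of 26 genes higher and 2 lower in both patch groups. Of all genes, 12.4% were higher and 12.1% lower there. The median log2 fold change of the 26 was 0.22 beside 0.01 for all genes. In Strain against TD alone 2 of the 26 were higher (Slc7a11 and Slc3a2) and 1 lower, or 11.5% beside 12.6% of all genes. In No Strain 6 were higher and 1 (Nupr1) lower, or 26.9% beside 17.8%. The lower gene in Strain was Fgf21, a stress-induced hormone, with a log2 fold change of -1.38 ± 0.343 (SE, edgeR adjusted p = 0.0262), at 0.0900 to 0.248 CPM in Strain and 0.288 to 0.558 CPM in TD, levels of few counts. Among the 9 higher in both were the tRNA charging enzymes Aars, Sars, Gars and Nars (log2 fold changes 0.18 to 0.22), Cebpb (0.61) and the stress cytokine Gdf15 (1.21). Nupr1 (-0.17) and Vldlr (-0.63) were the 2 lower.

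Slc7a11, the cystine importer, had the largest shift of the genes named here. It had 21.8, 18.7, 16.3, 13.3 and 11.3 CPM in TD, 120, 124, 31.8 and 59.5 CPM in Strain, and 110, 106 and 85.2 CPM in No Strain. All patch libraries lay above TD, Strain 3 nearest to it. The log2 fold change was 2.36 ± 0.354 (SE) in Strain and 2.62 ± 0.373 in No Strain (edgeR adjusted p = 0.00539 and 0.00262). Its partner chain Slc3a2 had 102 to 124 CPM in TD, 151 to 180 CPM in Strain and 173 to 179 CPM in No Strain, with log2 fold changes of 0.54 ± 0.07 and 0.66 ± 0.076 (adjusted p = 0.00386 and 0.00111). With the muscle markers as a covariate both were called in No Strain (2.41 and 0.70, adjusted p = 0.0345 and 0.0101) and neither in Strain (1.95 and 0.61, adjusted p = 0.493 and 0.302). Both are usually counted among ATF4 targets, like Asns, and like Chac1, which was lower. A part of ATF4 in these shifts was not tested.

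The remaining pathway groups were mixed. Of 19 other ER folding and entry genes, 4 were higher in both patch groups and 0 lower, or 21.1% beside 24.4% of all genes. Ero1l, the oxidase that recharges the disulfide isomerases and is also a hypoxia-regulated gene, had 35.7 to 56.6 CPM in TD, 54.0 to 83.8 CPM in Strain and 70.0 to 76.6 CPM in No Strain (log2 fold change 0.66 ± 0.134 for both, edgeR adjusted p = 0.00621). The others were Ppib, Selenok and Sec61b, at 0.18 to 0.24. Ero1l was not called with the skeletal muscle markers as a covariate. It was then at 0.54 in No Strain and 0.43 in both patch groups (edgeR adjusted p = 0.135 and 0.354). With edgeR, 0 of 14 ER-associated degradation genes and 0 of 5 other sensors passed, with 2 and 1 genes at an unadjusted p under 0.05. DESeq2 also called 0 in both lists, and limma-voom called 1 sensor, Creb3l2, as lower. Of 40 other cytosolic heat shock genes, 7 were higher and 6 lower in both patch groups, or 32.5% beside 24.4% of all genes. All 7 higher ones were subunits of the chaperonin CCT (Cct2, Cct3, Cct4, Cct5, Cct6a, Cct7 and Cct8), which folds actin and tubulin, at log2 fold changes of 0.15 to 0.28. Tcp1, the other CCT subunit on the list, was called there by DESeq2 but not by edgeR or limma-voom. The lower ones were Hspa2, Hspb6, Dnajb2, Dnajb4, Hsf2 and Hsf4. Hspb6, a small heat shock protein of muscle, was at 70.8 to 206 CPM in TD, 34.1 to 51.4 CPM in Strain and 35.7 to 77.9 CPM in No Strain (log2 fold change -1.48 ± 0.26 for both, edgeR adjusted p = 0.00313). With the skeletal muscle markers as a covariate its log2 fold change was -0.35 and not called (edgeR adjusted p = 0.388). In Strain that fit cannot tell the patch from the markers, so nothing is read from the lost call. Hspa2 (-0.69 ± 0.123, adjusted p = 0.00326) and the heat shock factor Hsf4 (-0.46 ± 0.113, adjusted p = 0.0135) were also lower. With that covariate they were at -0.36 and -0.51 and not called (adjusted p = 0.326 and 0.245). Of 10 other mitochondrial chaperones and proteases, 1 or 10%, the protease subunit Clpp, was higher.

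**Figure D5:**
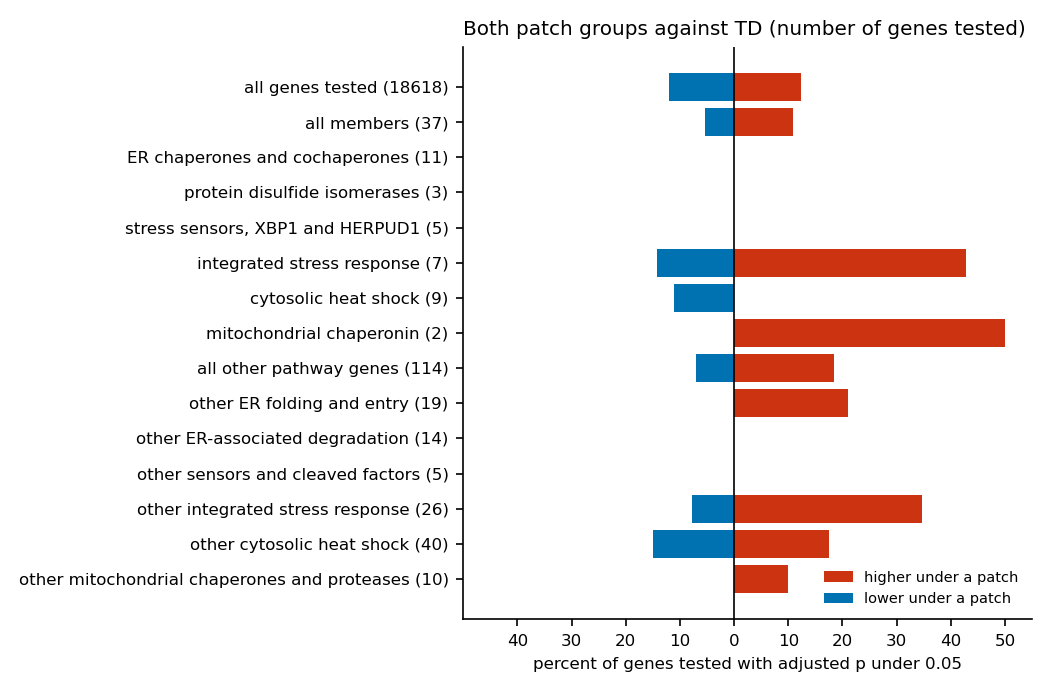
Percent of genes tested (x axis, right for higher and left for lower under a patch) with an edgeR adjusted p under 0.05 for both patch groups against TD, by gene list with the number tested in brackets. The bars of the integrated stress response, members (7) and other genes (26), reach farthest to the higher side among lists of more than 2 genes, the ER chaperones, isomerases, sensors and degradation genes have none, and all members together lie below all genes tested.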

How the data were processed

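The deposited files hold raw counts per gene, 1 file for each of 12 libraries, per the file headers. Per the submitters' processing notes, the authors used bcl2fastq 2.17, FastQC, cutadapt, STAR, featureCounts and DESeq2 with build GRCm38. The annotation release, the use of strand and the handling of multi-mapped reads are not given in the sources used here, so near-identical and overlapping genes are uncertain. Per the labels' protocols, total RNA was enriched on oligo(dT) beads. Symbols came from GENCODE M21, which named 54079 of 54232 identifiers.

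Genes were kept by filterByExpr of edgeR 4.0.16 (minimum count 10, minimum total 15), leaving 18618. All 12 libraries entered 1 robust quasi-likelihood fit in R 4.3.3 after scaling by the trimmed mean of M-values, and p-values were adjusted over all genes by the Benjamini-Hochberg method, with a threshold of 0.05. Standard errors came from the fold change and its F statistic. The script was tested on simulated data. Relations with Hspa5 used 100000 permutations over the 12 libraries, two-sided, and the r of 0.7 and 0.9 that genes were counted past were chosen after the values were seen.

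Values in every library are given for each member called in any comparison and for Hspa5, Xbp1, Atf4, Ddit3, Hspa1a, Hspa1b and Hsf1. Of the other pathway genes, the 3 higher and 3 lower with the smallest p for both patch groups were named, and further genes were named after their values were seen, as were Atf6 and Hspd1. Members, lists and rules were chosen with earlier results of these data known. Alternatives were DESeq2 size factors, library totals alone, DESeq2 1.42.0, limma-voom (limma 3.58.1), no filter, each covariate (title letter, muscle markers), fits on only the groups compared, the Hspa1 pair summed, and leaving out each library. Sequences are RefSeq windows of 300 bases, GRCm38.p6.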

Additional observations from a re-analysis of the deposited data

Results flagged for a closer look

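In 74 sets of replicate values, those of 37 members in TD and in Strain, 4 had a library far from the rest of its group, where chance gives about 1 in 20, or 3.7. Of these, 2 concerned Strain 2: it was highest for Atf6 at 92.8 CPM, with the other Strain libraries at 78.2 to 80.2, and for Hspa8 at 1308 CPM, with the others at 937 to 983. The remaining sets were in TD: TD 1 was lowest for Atf3 at 23.7 CPM (others 44.4 to 49.5), and TD 4 was lowest for Ppp1r15a at 18.6 CPM (others 21.6 to 22.6). Without TD 4 the Ppp1r15a call for both patch groups held, and that for Strain alone did not (edgeR adjusted p = 0.0896).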

How the results depend on the processing

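No paired analysis was possible because the title numbers are unique and the groups share none. A fit on only the groups compared is the reported fit where both patch groups are set against TD, so it adds no value there. Members called in Strain against TD went from 6 to 3 with limma-voom (Asns, Ppp1r15a and Hspa1a lost), 0 with the title letter and 0 with the muscle markers, and to 0 to 6 on leaving out each library. In No Strain they were 3 with the letter, 1 with muscle, and 3 to 7 on leaving out libraries, and in both patch groups 0 with muscle. Other pathway genes called in Strain were 19 with DESeq2, 6 without a filter, 4 with the letter, 0 with muscle and 4 to 13 on leaving out libraries. In No Strain they were 29 with DESeq2, 3 with muscle and 6 to 18 on leaving out libraries, and in both patch groups 18 without a filter, 14 with the letter, 1 with muscle and 14 to 27 on leaving out libraries. The cause was not tested.

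Directions turned only in comparisons where the gene was not called. The largest values to turn were Chac1 in Strain against No Strain (0.17) without Strain 1 and Hspa1b in Strain against TD (-0.14) without Strain 4. With library totals alone, Strain against No Strain gave Xbp1 0.041, Ddit3 0.019, Asns 0.023 and Hsf1 0.039. With limma-voom it gave Hsf1 0.0023, and with muscle Hspa5 -0.027, Ddit3 0.00012 and Hsf1 0.027. Hspa5 became -0.016 (letter) and -0.090 (muscle) in Strain against TD, and 0.0033 without a filter in No Strain. In both patch groups it became -0.026 (totals), -0.020 (limma-voom), -0.033 (letter) and -0.076 (muscle). Leaving out each library, Strain against No Strain ran from -0.073 to 0.18 for Hspa5, -0.10 to 0.054 for Xbp1, -0.098 to 0.068 for Ddit3, -0.030 to 0.32 for Chac1, -0.15 to 0.091 for Asns, -0.081 to 0.037 for Hsf1 and -0.0035 to 0.077 for Hspe1. Strain against TD ran from -0.067 to 0.10 for Hspa5, -0.016 to 0.13 for Xbp1 and -0.33 to 0.043 for Hspa1b. Hspa5 ran from -0.14 to 0.10 in No Strain and from -0.059 to 0.088 in both.

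Scaling by library totals alone moved the split of all calls, to 1257 higher and 2046 lower in No Strain (38.1% higher, against 52.7%) and to 1787 and 2668 in both patch groups (40.1%, against 50.5%). It shifted the median of all genes by -0.06 in No Strain. The directions of the 6 called members held under every scaling. Hspe1 in No Strain was then 0.15 and not called. Chac1 had the fewest counts of any member, 25 to 87 per library.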
